A study of Mus musculus with 4 samples.

Results

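The genes described here are 6 hormone precursors that are textbook products of the pituitary and the hypothalamus: prolactin (Prl), growth hormone (Gh), the alpha subunit shared by the glycoprotein hormones (Cga), proopiomelanocortin (Pomc), oxytocin (Oxt) and vasopressin (Avp). They are 6 of the 27248 gene symbols on the array, and every non-control probe carrying one of these symbols was taken, 7 probes of 56605 in all. The genes had been picked with results of the same arrays in view, so all of their values are given as a description and none is tested. Of the 7 probes, 5 were well above background on all 4 arrays. The Gh probe was above background on 3 arrays and the Cga probe on 1.

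Each of the 4 one-colour arrays held prefrontal cortex RNA from 1 of 4 groups of B6J mice, aged 3 months. The groups were wild-type mice on starch, wild-type mice on sucrose, Glo1 heterozygous mice on starch and Glo1 heterozygous mice on sucrose. The diets began at weaning, on postnatal day 21, and lasted for about 70 days. Glo1 encodes glyoxalase 1, an enzyme that detoxifies methylglyoxal. The RNA of 3 mice was pooled in each group before hybridisation, so each group is 1 measurement without replicates, and the sex of the mice is not given in the labels used here. All 4 arrays lay on 1 slide.

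Prolactin and growth hormone are related proteins made by lactotroph and somatotroph cells of the anterior pituitary, and both cell types depend on the transcription factor POU1F1. Cga pairs with hormone-specific beta subunits to form thyrotropin, lutropin and follitropin. Pomc is cut by prohormone convertases into corticotropin and melanocyte-stimulating hormones, in the pituitary and in neurons of the hypothalamus. Oxytocin and vasopressin are made by magnocellular neurons of the hypothalamus, whose axons end in the posterior pituitary, and their genes are neighbours.

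The probe sequences are shown because each level below is the signal of 1 such 60-base probe, and because the Oxt probes gave different answers. They come from the scanner files, with positions on build mm9 as these files give them; the files do not annotate exon or UTR. Probes that cross an intron of the gene are shown whole, and of the others 30 bases are shown. Capitals mark AATAAA, the polyadenylation signal, in the last 30 bases of the Prl and Cga probes.
Prl, A_51_P155514, chr13:27156985-27157044, plus strand: gcaattggtctcctcttaaatAATAAAaac
Gh, A_51_P104687, chr11:106162492-106162735, minus strand, across an intron: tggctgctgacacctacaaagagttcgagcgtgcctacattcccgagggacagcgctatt
Cga, A_55_P2137688, chr4:34854544-34854603, plus strand: gtatttaccacggttccgtcagaAATAAAg
Pomc, A_52_P671543, chr12:3960413-3960472, plus strand: tggtgacgctcttcaagaacgccatcatca
Oxt, A_55_P2161903, chr2:130402665-130402724, plus strand: ctgagcccactttctgggaatacctttagc
Oxt, A_66_P119552, chr2:130402038-130402358, plus strand, across an intron: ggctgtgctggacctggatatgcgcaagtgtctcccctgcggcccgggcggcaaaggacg
Avp, A_51_P136508, chr2:130406552-130406817, minus strand, across an intron: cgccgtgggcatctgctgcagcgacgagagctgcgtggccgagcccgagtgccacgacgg
No probe of another gene shared a run of 15 bases with any of these 7 probes. The Oxt probe A_66_P119552 and the Avp probe are rich in G and C (68.3% and 73.3%), and the Prl probe is poor in them (35%).

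Levels are given as a percent of the 75th percentile of signal on the same array, with the error that the scanner software estimated for the spot. That error covers the measurement of the spot and neither the mice nor the labelling. A level of 1 probe cannot be set against that of another, so the genes are not ranked among themselves. Sums of marker levels given below follow their brightest probes and are a description of signal alone.

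Of the 5 probes measured on every array, that of Prl spanned the widest range. Its level was 1.01% ± 0.169 in wild-type mice on starch, 3.05% ± 0.325 in wild-type mice on sucrose, 10.6% ± 1.07 in heterozygous mice on starch and 1.05% ± 0.174 in heterozygous mice on sucrose. The heterozygous starch array was the highest and the wild-type sucrose array the next, and both steps down the order were larger than 2 times the software error. The remaining arrays, wild-type starch and heterozygous sucrose, did not differ beyond that error (log2 difference 0.06 ± 0.34). On sucrose, Prl was therefore 3.02-fold higher than on starch in wild-type mice and 10.04-fold lower than on starch in heterozygous mice. Between genotypes it was 10.5-fold higher in heterozygous mice on starch and 2.89-fold lower in heterozygous mice on sucrose. In log2 terms the diet change was 1.60 ± 0.29 for the wild-type and -3.33 ± 0.28 for the heterozygous pair of arrays. The interaction, the second of these minus the first, was -4.92 ± 0.40, the lowest value among the 42094 probes above background on all arrays.

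The Prl probe was dim. Its signal was 17.9 intensity units in wild-type mice on starch and 20.3 in heterozygous mice on sucrose, where the dimmest probes called well above background read 11.7 and 13.0. Probes this dim pass 2-fold more often than bright ones. Among the 9178 probes whose mean level lay within 2-fold of that of Prl, 3.13% differed by 2-fold or more between the diets in wild-type mice and 3.64% in heterozygous mice, and 7.19% had an interaction of 1 or more in size. For all probes the same shares were 1.32%, 1.46% and 2.74%. With normexp background correction, which estimates the background anew and adds an offset of 50 intensity units, the Prl diet change was 0.35 for the wild-type and -1.61 for the heterozygous arrays. The genotype change was then 1.44 on starch and -0.52 on sucrose, so 2 of its 4 pairwise calls were lost.

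Gh, whose cells also depend on POU1F1, was highest on the heterozygous starch array as well. Its level was 1.44% ± 0.211 in wild-type mice on starch, 1.60% ± 0.207 in wild-type mice on sucrose and 4.46% ± 0.473 in heterozygous mice on starch. In heterozygous mice on sucrose it read 0.761% ± 0.172, which was not well above background. The wild-type arrays did not differ beyond 2 software errors (log2 difference 0.15 ± 0.28), unlike those of Prl. On starch, Gh was 3.09-fold higher in heterozygous than in wild-type mice (log2 1.63 ± 0.26), and 0.51 with normexp correction, below 2-fold. Against the heterozygous starch array, the heterozygous sucrose array read 5.85-fold lower (log2 -2.55 ± 0.36). Against wild-type mice on sucrose it read 2.11-fold lower (-1.07 ± 0.37), and against wild-type mice on starch 1.89-fold lower (-0.92 ± 0.39). The dim spot read 14.7 intensity units, above the 13.0 of the dimmest probe called well above background on its array. These folds are therefore those of its own reading and are no bound.

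Cga was above background on the heterozygous starch array alone, at 1.76% ± 0.234. On the wild-type starch, wild-type sucrose and heterozygous sucrose arrays it read 0.393%, 0.327% and 0.198%, none of them well above background. A bound takes as the lower side the dim spot itself or the dimmest signal called above background on its array, whichever is greater. The heterozygous starch array was at least 2.69-fold higher than the wild-type starch array, and the heterozygous sucrose array was at least 2.62-fold lower than it. No fold is given among the other 3 arrays. The highest of the 4 arrays was thus the same for Prl, Gh and Cga.

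Pomc did not share that pattern. It read 40.4% ± 4.04 in wild-type mice on starch, 45.5% ± 4.55 in wild-type mice on sucrose, 39.4% ± 3.94 in heterozygous mice on starch and 42.7% ± 4.27 in heterozygous mice on sucrose. No neighbours in this order differed beyond 2 software errors. The log2 diet change was 0.17 ± 0.20 for the wild-type and 0.12 ± 0.20 for the heterozygous arrays, and the interaction was -0.05 ± 0.29.

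**Figure D1:**
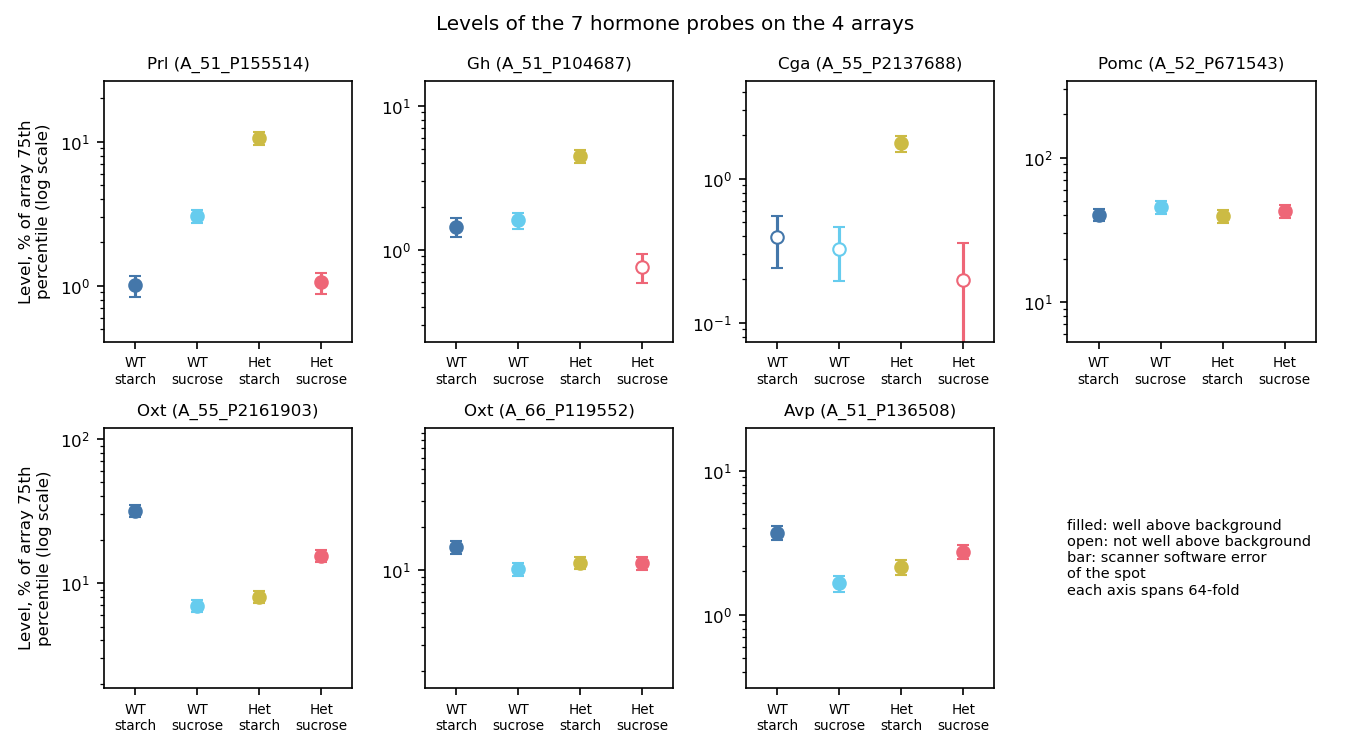
Level of each of the 7 hormone probes on the 4 arrays, as a percent of the array's 75th percentile on a log axis; each panel spans the same 64-fold range, bars are the scanner software's error of the spot, and open circles mark spots not well above background. Prl, Gh and Cga are highest on the heterozygous starch array (10.6%, 4.46% and 1.76%), Pomc lies between 39.4% and 45.5%, and the Oxt probe A_55_P2161903 and Avp are highest on the wild-type starch array (31.9% and 3.70%).

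The 2 Oxt probes did not give the same picture. Probe A_55_P2161903 read 31.9% ± 3.19 in wild-type mice on starch, 6.96% ± 0.706 in wild-type mice on sucrose, 8.04% ± 0.817 in heterozygous mice on starch and 15.5% ± 1.56 in heterozygous mice on sucrose. By this probe Oxt was 4.58-fold lower on sucrose in wild-type mice (log2 -2.19 ± 0.21) and 1.93-fold higher on sucrose in heterozygous mice (0.95 ± 0.21), with an interaction of 3.15 ± 0.29. It was 3.96-fold lower in heterozygous than in wild-type mice on starch and 2.23-fold higher in heterozygous mice on sucrose. Heterozygous mice on sucrose were 2.05-fold below wild-type mice on starch. With normexp correction the last 2 of these changes were 0.85 and -0.90, below 2-fold.

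Probe A_66_P119552, which crosses an intron, read 14.4% ± 1.45, 10.1% ± 1.02, 11.3% ± 1.14 and 11.2% ± 1.13 on the wild-type starch, wild-type sucrose, heterozygous starch and heterozygous sucrose arrays. No neighbours in its order differed beyond 2 software errors. Its diet change was -0.51 ± 0.21 in wild-type mice and -0.00 ± 0.21 in heterozygous mice, and none of its changes reached 2-fold. Both probes were highest on the wild-type starch array and lowest on the wild-type sucrose array. Their wild-type diet changes differed by -1.69 ± 0.29 on the log2 scale and their interactions by 2.64 ± 0.41. Among the 9065 genes with 2 or more measured probes, 0.596% had probes at least that far apart in the wild-type diet change and 0.474% in the interaction, where the median spread was 0.22 and 0.26. The direction of Oxt in wild-type mice was the same by both probes, and its size was not.

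Avp, the chromosomal neighbour of Oxt, was also highest in wild-type mice on starch. Its level was 3.70% ± 0.397 there, 1.65% ± 0.204 in wild-type mice on sucrose, 2.14% ± 0.258 in heterozygous mice on starch and 2.75% ± 0.310 in heterozygous mice on sucrose. Each step down this order was within 2 software errors, while the highest and lowest arrays were 2.24-fold apart (log2 -1.17 ± 0.24, sucrose against starch in wild-type mice). In heterozygous mice the diet change was 0.36 ± 0.24, and the interaction was 1.53 ± 0.34. With normexp correction the wild-type diet change was -0.54 and the interaction 0.63, so neither call was kept. Avp and the Oxt probe A_55_P2161903 ranked the arrays in the same order. Of the 9202 probes within 2-fold of the mean level of Avp, 7.12% had an interaction of 1 or more in size.

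**Figure D2:**
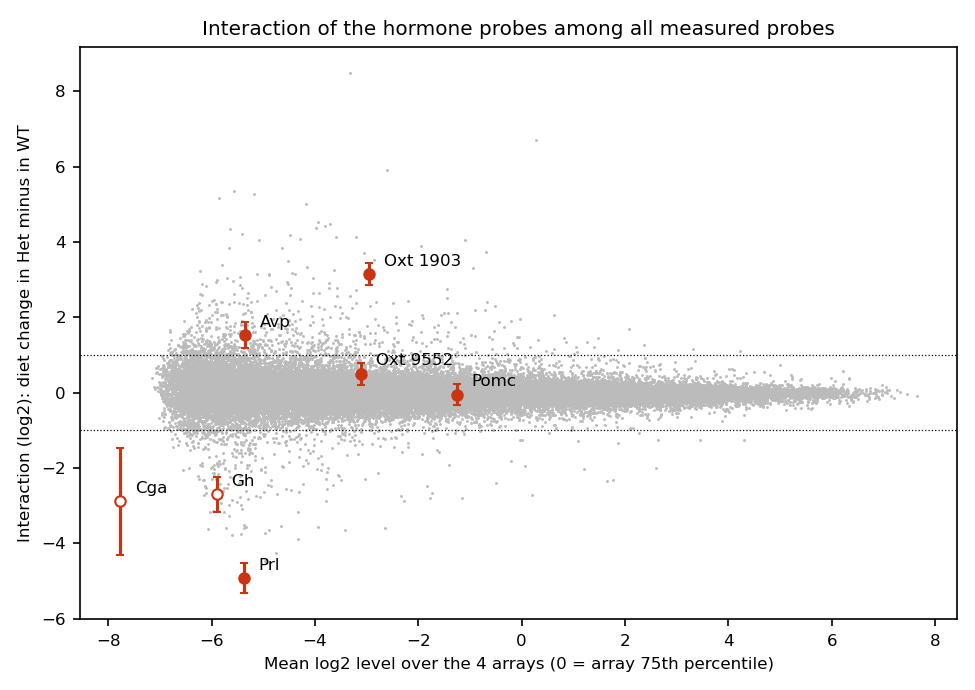
Interaction (diet change in heterozygous minus that in wild-type mice, log2) against the mean log2 level over the 4 arrays, where 0 is the array's 75th percentile, for the 42094 probes measured on all arrays (grey) and the 7 hormone probes (red, with the scanner software's error). Dotted lines mark 1 and -1; open circles are Gh and Cga, which were not above background on every array, so their plotted values are no bound. Prl lies lowest at -4.92, and the Oxt probes lie apart at 3.15 and 0.50.

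Of the 5 hormone probes measured on all arrays, 3 passed 2-fold between the diets in wild-type mice (Prl, Avp and 1 probe of Oxt), beside 1.32% of all probes. In heterozygous mice 1 of 5 passed, beside 1.46%. Between genotypes on starch 2 of 5 passed, beside 0.938%, and on sucrose 2 of 5, beside 1.43%. Heterozygous mice on sucrose differed from wild-type mice on starch by 2-fold in 1 of 5, beside 1.82%, and 3 of 5 had an interaction of 1 or more in size, beside 2.74%. The genes were chosen on these comparisons, so nothing is read from the counts. Since the comparisons share arrays, 1 high or low array moves several of them.

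The other genes of the anterior pituitary were followed through lists of known genes. Of the beta subunits that pair with Cga, Tshb read 1.12%, 1.54%, 1.25% and 1.30% in the order wild-type starch, wild-type sucrose, heterozygous starch and heterozygous sucrose, which is used from here on. Lhb read 27.0%, 23.6%, 23.5% and 24.5%, and Fshb was not above background on any array. For Pou1f1, Tshb, Lhb and the growth hormone releasing hormone receptor Ghrhr, a second probe was above background on no array, so the values given are those of 1 probe. Neither measured beta subunit reached 2-fold in any comparison, beside 1.48% of the 20655 measured genes, each taken by the probe with the highest mean log2 level, for diet in wild-type mice. The corresponding share was 1.77% for diet in heterozygous mice, 0.813% for genotype on starch, 1.71% for genotype on sucrose and 2% for heterozygous sucrose against wild-type starch, and 2.88% had an interaction of 1 or more in size.

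Of 9 pituitary transcription factors, 5 were measured on all arrays and 0 of these passed 2-fold in any comparison. Pou1f1, which drives the lactotroph and somatotroph lineages, read 1.90%, 2.11%, 1.68% and 1.63%. Lhx3, a LIM-homeodomain factor of the early pituitary, read 26.1%, 21.9%, 19.2% and 20.1% by its brighter probe and 3.88%, 2.89%, 3.14% and 3.69% by the other. Neither was highest on the heterozygous starch array, where Prl, Gh and Cga were highest. Tbx19, the corticotroph factor that drives Pomc in the pituitary, was above background on that array alone, with signals of 7.47, 6.59, 16.0 and 11.6 intensity units. Pitx1, Hesx1 and Neurod4 were above background on none.

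**Figure D3:**
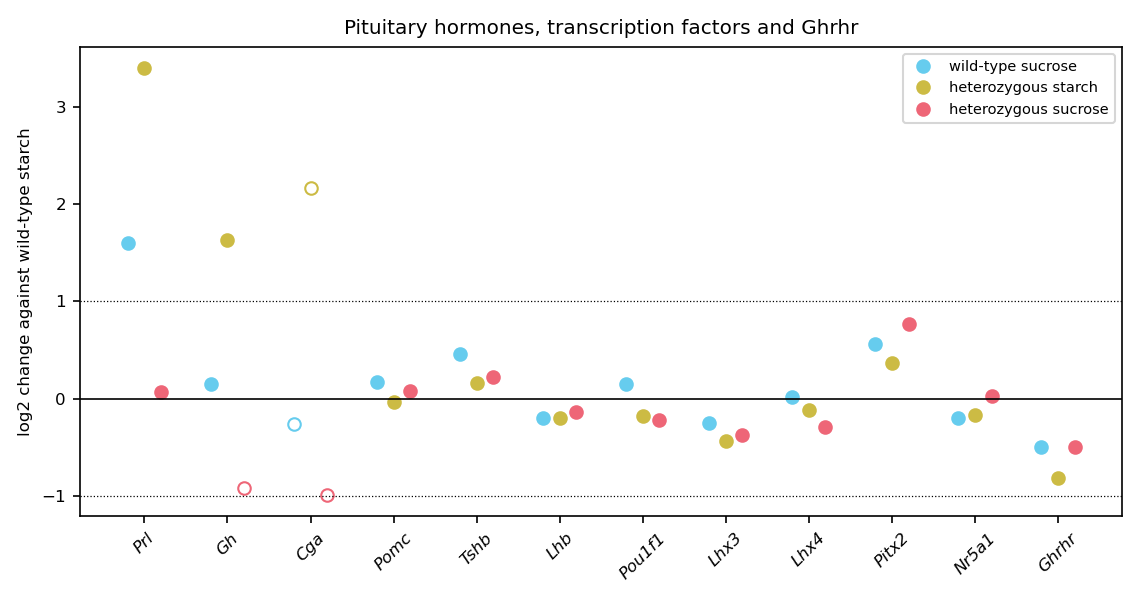
Change of anterior pituitary hormones, transcription factors and the growth hormone releasing hormone receptor Ghrhr against the wild-type starch array (log2; dotted lines at 2-fold); open circles mark changes in which either array was not well above background. Prl and Gh stand at 3.39 and 1.63 on the heterozygous starch array, while Tshb, Lhb, Pou1f1 and Lhx3 stay within 2-fold on every array.

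As markers of anterior pituitary cells, 8 genes were taken. Of these, 5 were measured, and their summed level was 0.579, 0.503, 0.467 and 0.488 times the array's 75th percentile, lowest on the heterozygous starch array. Most of this sum was Lhb and Lhx3, and Tshb was slightly higher on that array than on the wild-type starch array (log2 0.16). Of the 3 markers not measured on all arrays, Pitx1 and Fshb were above background on none, and Tbx19 was above background on the heterozygous starch array alone. The part of pituitary cells in the hormone values was not tested. The 10 hypothalamic markers, 8 of them measured, summed to 0.777, 0.847, 0.662 and 0.737, with Sim1 and Six6 above background on none. Kiss1 was the largest part of this sum on each array (51.5%, 57.8%, 42.9% and 49.0%). Between the diets in wild-type mice, 4 of the 8 were higher on sucrose and 4 lower, Otp, Nkx2-1 and Rax among the lower. In pooled tissue, fewer cells of a type and less RNA per cell cannot be told apart.

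The prolactin family has 23 further genes on the array, most of them placental hormones encoded beside Prl. Of these, 4 were measured on all arrays, Prl2c1, Prl3b1, Prl3d1 and Prl6a1, and 17 were above background on no array. Prl2c1 read 88.4%, 68.8%, 76.0% and 71.0%. Prl3b1, a placental lactogen, read 5.64%, 4.58%, 3.96% and 3.81%. None of the 4 passed 2-fold, and on starch all 4 were lower in heterozygous mice, with a median log2 change of -0.36, where Prl was 3.39. Over all measured genes that median was -0.02.

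Stretches of 100 bases before the start sites of Prl and Cga are shown because these 2 genes were highest on the same array; they are RefSeq sequences of build GRCm38.p6. The promoter table held 5 of the 6 genes, without Gh. Capitals mark matches, on either strand, to TATNCAT, the core that POU1F1 binds, and to TATAAA, the TATA box. These letters were chosen after the sequences had been seen.
Prl, chr13:27057470-27057569, plus strand: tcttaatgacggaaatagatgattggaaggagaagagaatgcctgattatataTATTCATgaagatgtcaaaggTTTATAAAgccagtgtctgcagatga
Cga, chr4:34893679-34893778, plus strand: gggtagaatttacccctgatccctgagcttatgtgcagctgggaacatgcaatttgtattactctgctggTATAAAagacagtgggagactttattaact
In the window from 250 bases before to 50 after the start, Prl held 2 matches to TATNCAT, and Cga, Pomc, Oxt and Avp held 0. To TATAAA, Prl held 2 matches, Cga and Pomc 1 each, and Oxt and Avp 0. Of the 32817 promoters of this length in the table, 8.84% held TATNCAT and 13.6% held TATAAA. A match is a run of letters and not a measured binding site.

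Of 14 receptors for these hormones, 9 were measured on all arrays. Mc2r, the corticotropin receptor, read 2.24%, 2.10%, 2.59% and 15.9%, with its top value in heterozygous mice on sucrose (log2 2.62 for diet in heterozygous mice, interaction 2.71). A second Mc2r probe was above background on no array. The prolactin receptor Prlr was covered by 3 probes, all on the plus strand of chromosome 15. The one with the highest mean log2 level, which represents the gene in the counts, A_52_P458279 at chr15:10255629-10255688, read 7.94%, 6.91%, 6.57% and 12.9%, short of 2-fold in each pairwise comparison but with an interaction of 1.18. Probe A_66_P139387 at chr15:10259066-10259125 read 2.25%, 4.04%, 2.18% and 91.1%, a log2 diet change of 5.38 in heterozygous mice. Probe A_55_P2503206 at chr15:10278249-10278308 read 1.15%, 1.34%, 1.28% and 3.30%, a change of 1.37. All 3 Prlr probes were highest on the heterozygous sucrose array, where Prl itself was 10.04-fold below the heterozygous starch array. The vasopressin receptor Avpr1b was above background on the heterozygous sucrose array alone, at a signal of 42.4 against 3.34 to 5.99 on the others.

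Markers of the choroid plexus, a tissue known for high Prlr, were highest on the same array as these receptors. All 10 of 10 listed markers were measured and were at least 2-fold higher in heterozygous mice on sucrose than in each of the other groups, beside 1.29% to 1.37% of all measured genes. Their summed level was 16.6, 17.9, 15.9 and 103 times the 75th percentile. Ttr, the transthyretin gene that defines this tissue in brain, read 25.9%, 142%, 10.1% and 5869%. The part of the choroid plexus in the values of Prlr, Mc2r and Avpr1b was not tested.

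The other receptors changed by less than 2-fold in every comparison. The oxytocin receptor Oxtr read 94.9%, 70.0%, 80.6% and 72.8%, highest on the wild-type starch array, where both Oxt probes were highest. The growth hormone receptor Ghr read 33.8%, 37.7%, 37.7% and 36.1%, and the vasopressin receptor Avpr1a read 12.4%, 13.6%, 11.3% and 13.0%. The melanocortin receptors of the brain, Mc3r and Mc4r, read 4.78%, 7.85%, 4.66% and 8.21%, and 6.83%, 9.31%, 7.50% and 10.1%; each was higher on sucrose than on starch in both genotypes, by 0.42 to 0.82 on the log2 scale. Mc5r and the lutropin receptor Lhcgr also stayed within 2-fold, and Avpr2, Tshr and Fshr were above background on no array.

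Of 13 hypothalamic releasing factors and their receptors, 11 were measured. Trh, the thyrotropin-releasing hormone, which also releases prolactin, read 198%, 32.9%, 118% and 73.2%. It was lower on sucrose by 2.59 on the log2 scale in wild-type mice and by 0.69 in heterozygous mice, and 1.16 higher in heterozygous than in wild-type mice on sucrose. Its array order differed from that of Prl: Trh was highest in wild-type mice on starch, a group at the low end for Prl. Its receptor Trhr read 16.6%, 26.9%, 22.0% and 37.0%, and passed 2-fold between heterozygous sucrose and wild-type starch alone (1.16). Gnrh1, the gonadotropin-releasing hormone, read 67.3%, 35.3%, 73.4% and 23.5%, lower on sucrose in both genotypes (-0.93 and -1.64); a second, dimmer probe gave 0.02 and -0.01. Drd2, the dopamine receptor through which prolactin release is held back, read 2.82%, 3.49%, 2.42% and 1.39% (-1.32 for genotype on sucrose, interaction -1.10), and it is also 1 of the striatal markers described below. Ghrh, Ghrhr, Crh and Sst did not pass 2-fold in any comparison.

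**Figure D4:**
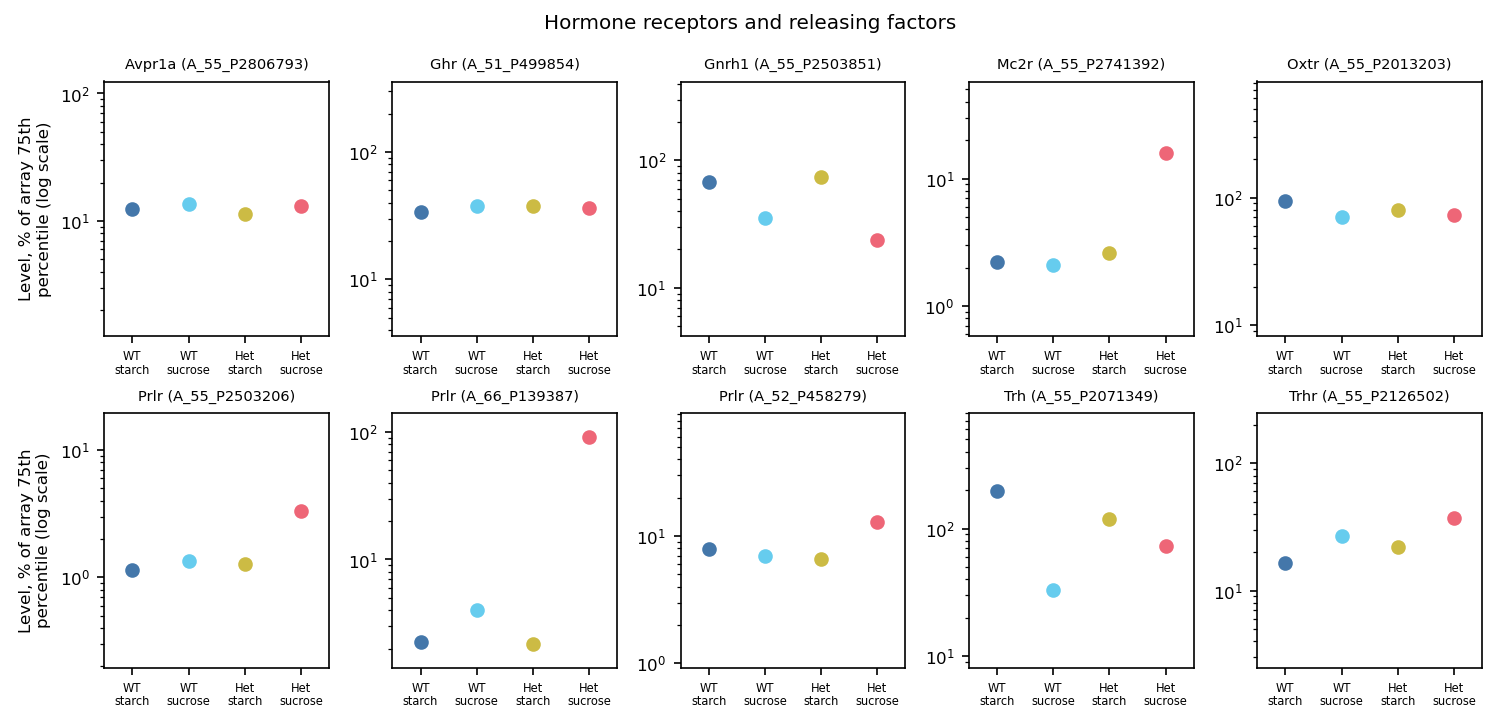
Levels of receptors and releasing factors on the 4 arrays, as a percent of the array's 75th percentile on log axes that each span the same range; 1 panel is 1 probe, and Prlr has 3. The Prlr probes and Mc2r are highest on the heterozygous sucrose array (91.1% for Prlr probe A_66_P139387, 15.9% for Mc2r), and Trh is highest on the wild-type starch array (198%).

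Genes that turn precursors into hormones and pack them into granules, 10 of 10 measured, gave 0 past 2-fold in any comparison. The prohormone convertase Pcsk1 was lower on sucrose in both genotypes (log2 -0.74 and -0.75), while Pcsk2 was 0.29 and 0.27. Of 10 genes of prolactin and growth hormone signalling, 9 were measured. Among them Elf5, a factor induced by prolactin in mammary gland, passed 2-fold on the heterozygous sucrose array, at 12.6% against 5.84% to 6.24% on the others. Its log2 diet change in heterozygous mice was 1.02, a call that was lost with scaling to the median, quantile normalization and normexp background correction. Cish, a feedback inhibitor induced through STAT5, read 66.7%, 63.6%, 79.8% and 60.1%, and neither it nor Socs2 or Igf1 passed 2-fold.

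Of 11 other hypothalamic neuropeptides, 10 were measured. Cartpt, an appetite-reducing peptide also made in striatum, read 68.4%, 130%, 108% and 57.8%, which was 1.16 lower on the log2 scale in heterozygous than in wild-type mice on sucrose. It was the 1 member of this list past 2-fold, and Hcrt, Pmch and Agrp, which are made almost only in the hypothalamus, were not. Of 10 hypothalamic transcription factors, 8 were measured, and Six3, a homeobox gene of the anterior forebrain, was the 1 past 2-fold. It read 1.74%, 11.3%, 8.31% and 3.67%, a diet change of 2.70 without and of -1.18 with the Glo1 mutation, and an interaction of -3.88. With normexp correction no gene of this list, Six3 included, passed 2-fold for diet in heterozygous mice. Its other 2 probes were above background on no array. Like Prl, it was higher on sucrose in wild-type and lower on sucrose in heterozygous mice.

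Striatal markers moved the same way as Six3 and Cartpt. Of the 11 listed genes on the array, 10 were measured. Of these 10, 9 had an interaction of -1 or lower, beside 0.794% of all measured genes. Between the diets, 4 of the 10 were past 2-fold higher on sucrose in wild-type mice and 4 past 2-fold lower on sucrose in heterozygous mice, beside 0.484% and 0.479% of genes, and on starch 3 were higher in heterozygous mice, beside 0.344%. Their summed level was 37.4, 59.95, 56.0 and 32.4 times the 75th percentile. For Prl the highest array was heterozygous starch, for the striatal sum it was wild-type sucrose, and the arrays at the low end were the same pair. The part of striatal tissue in the Prl, Six3, Cartpt and Drd2 values was not tested.

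**Figure D5:**
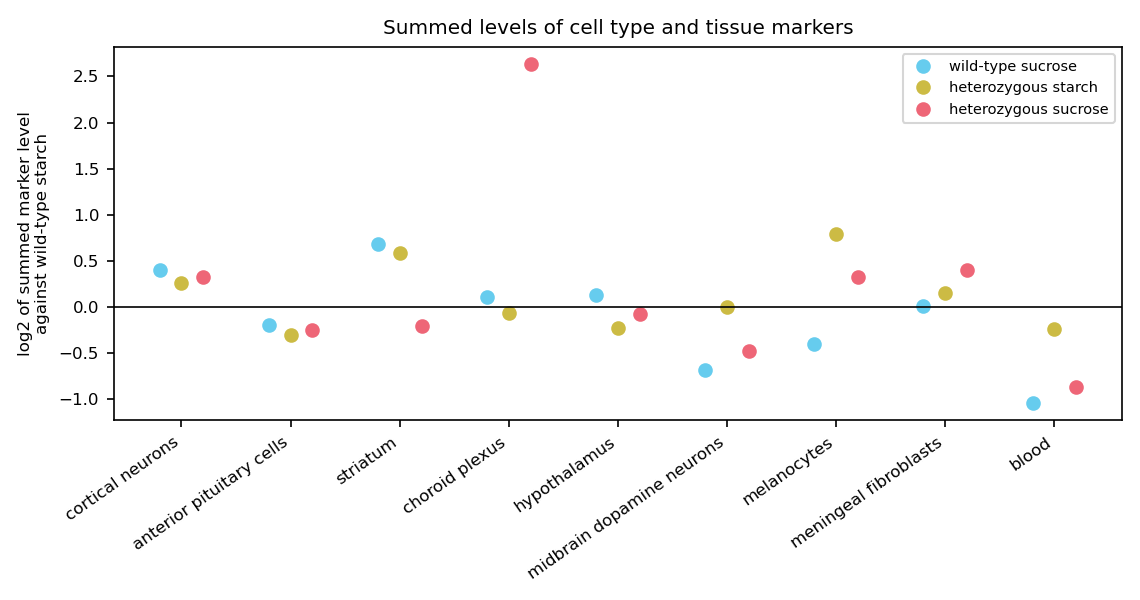
Summed level of each marker list against the wild-type starch array (log2), for the measured genes of 9 lists of cell types and tissues. The choroid plexus sum is highest on the heterozygous sucrose array (103 against 15.9 to 17.9), the striatal sum is higher on the wild-type sucrose and heterozygous starch arrays, and the sum for anterior pituitary cells, mostly Lhb and Lhx3, is highest on the wild-type starch array (0.579).

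Other facts of the arrays are brief. On each array 77.6% to 80.2% of spots were well above background, and 0 were saturated. Cortical neuron markers, 10 of 10 measured, summed to 84.9, 112, 102 and 106 times the 75th percentile, so markers of the labelled tissue were present on every array. Glo1 by its brightest probe read 404%, 553%, 274% and 304%, and its 3 probes were all lower in heterozygous mice on both diets. Blood genes, 6 of 6 measured, summed to 277, 135, 235 and 152, and the 8 markers of midbrain dopamine neurons, 6 of them measured, to 8.05, 5.03, 8.06 and 5.78. In wild-type mice 4 of the 6 blood genes were past 2-fold lower on sucrose, beside 0.992% of genes. So was Th, the tyrosine hydroxylase gene among the dopamine markers (429%, 97.1%, 377% and 215%). Th was the 1 dopamine marker past 2-fold there, and of the 6 measured 3 were higher and 3 lower (median log2 -0.004). Th ranked the arrays in the same order as Trh, and the Oxt probe A_55_P2161903 and Avp were also lowest on the wild-type sucrose array. The 7 melanocyte markers, 6 of them measured, summed to 1.77, 1.34, 3.06 and 2.23, with Mitf the largest part of the sum on each array. On starch, 4 of the 6 were higher by 2-fold or more in heterozygous than in wild-type mice, beside 0.344% of genes (median log2 1.47). On sucrose 3 of the 6 were, beside 1.37% (median log2 1.35), while Prl was 2.89-fold lower in heterozygous mice there. Mlana (3.19), Dct (2.94) and Tyrp1 (1.87), genes of pigment cells, were highest on the heterozygous starch array, as were Prl, Gh and Cga, while Tyr of the same list was highest in wild-type mice on starch, at 9.51% against 4.34% to 4.84% elsewhere. The 8 markers of meningeal fibroblasts, all measured, summed to 9.86, 9.90, 11.0 and 13.0. The part of any of these in the hormone values was not tested.

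The genes whose levels followed a hormone most closely were sought among 858 genes that were measured on all arrays and ranged over 2-fold or more. With only 4 arrays the correlation is a description. For Prl the 5 nearest were Npsr1 (r = 0.99), 4930590A17Rik (0.97), Nts (0.95), Cpb1 (0.95) and BC049635 (0.94). Npsr1, the receptor of neuropeptide S, read 10.7%, 16.0%, 27.5% and 9.43%, and Nts, the neurotensin precursor, read 21.0%, 36.7%, 51.1% and 16.1%. For Oxt by its brighter probe they were 4931420L22Rik, 4930488N15Rik, Tigd4, Ehd1 and Cela3b. For Avp they were Asb17os, LOC434348, LOC105243826, 4931420L22Rik and 4930488N15Rik, so that 2 genes stood in both lists. Of the 858 genes, 4 had an r over 0.95 with Prl, 11 with Oxt and 13 with Avp.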

How the data were processed

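The members and gene lists were chosen with earlier results of these data known. The deposited scanner files hold intensity per spot from Agilent Feature Extraction 11.5.1.1, per the submitters' processing notes, with mm9 positions per the file headers; the RNA used was 200 ng per array, per the labels' protocols. The authors also deposited a ratio per spot, which equalled the processed signal divided by the array's 75th percentile for 100% of values (relative tolerance 1e-04). The processed signal was divided by the 75th percentile of the 59305 non-control spots and put on the log2 scale. Control spots and outlier spots were left out, and repeat spots were averaged. With 1 array per group no p-value is given. A call is a difference of 2-fold, or an interaction of 1 in size, among the 42094 probes well above background on all arrays. Where 1 side was not, a lower bound is given for Cga, and the fold of the dim spot's own reading for Gh. Genes were taken by their brightest probe, that with the highest mean log2 level. Named were all members, genes of the pathway lists past 2-fold in a pairwise comparison, the measured receptors and the 5 genes nearest in pattern; other genes of the pathway and marker lists were named as examples, with values seen. Each slide position held 1 group, so the position on the slide and the group cannot be told apart. Precision is limited by the number of arrays. Alternatives were scaling to the median, normexp background correction (limma 3.58.1, offset 50), quantile and cyclic loess normalization, the deposited ratios, outlier spots kept, no filter, and the mean over a gene's probes. Python 3.11.15 and R 4.3.3 were used, and the computation was tested on simulated data. A result for 1 gene of the lists is not reported here, and its lists were counted without it.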

Additional observations from a re-analysis of the deposited data

Results flagged for a closer look

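The diet changes of Prl went past 2-fold in opposite directions in the genotypes, higher on sucrose in wild-type and lower in heterozygous mice, with a difference of -4.92 on the log2 scale. Six3 did the same, with a difference of -3.88. With normexp background correction neither gene kept both calls. The Prl diet change in wild-type mice was then 0.35, and that of Six3 in heterozygous mice did not pass 2-fold. With 1 array per group neither difference was tested.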

How the results depend on the processing

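All 32 changes of the hormone probes kept their direction, and all 13 differences past the threshold (12 of probes measured on all arrays, and Gh for genotype on starch) were kept, with scaling to the median, quantile and cyclic loess normalization, the deposited ratios, and outlier spots kept. Normexp, with an offset of 50 intensity units beside Prl signals of 17.9 and 20.3 on its dimmest arrays, kept 30 directions and 6 of the 13, and made 16 changes smaller by more than their error. Under it Prl was 0.35 for diet in wild-type mice, -1.61 for diet in heterozygous mice, 1.44 for genotype on starch, -0.52 for genotype on sucrose and -1.96 for the interaction. The number of hormone probes past 2-fold became 1 for diet in wild-type mice, 0 for genotype on sucrose and 0 for heterozygous sucrose against wild-type starch. The counts over all probes, in the order diet in wild-type, diet in heterozygous, genotype on starch, genotype on sucrose, heterozygous sucrose against wild-type starch and interaction, were 554, 614, 395, 603, 766 and 1155. Under normexp they were 177, 226, 101, 231, 236 and 361, and without the background filter 3304, 2984, 3052, 3083, 3559 and 5374. Taking the mean over a gene's probes raised the receptors past 2-fold from 1 to 2 in each comparison with the heterozygous sucrose array, and lowered the releasing factors from 1 to 0 for diet in heterozygous mice. Under normexp the hypothalamic transcription factors kept 1 gene past the threshold for diet in wild-type mice and in the interaction, and 0 elsewhere. The cause of these losses was not tested. No paired analysis was possible because each group had 1 array.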
